A study of Mus musculus with 11 samples.

Results

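The retinoblastoma and E2F family was followed here in KP1 cells, a mouse small-cell lung cancer (SCLC) line grown in culture, 24 h after ionizing radiation. Its members were chosen by name and comprised 10 of the 35056 genes quantified, namely the pocket protein genes Rb1, Rbl1 and Rbl2, the E2F genes E2f1, E2f2, E2f3, E2f4, E2f7 and E2f8, and the DP gene Tfdp1. All 10 had enough reads to be tested. Groups of bulk RNA sequencing libraries were compared, 2 from untreated control cells (replicates 2 and 3) and 3 from cells that had received 5 Gy (replicates 1, 2 and 3), with both groups at the 24 h time point. All cells of both groups carry the Rb/p53 mutant background of this single SCLC-A line. Which part of Rb1 is altered is not given in the sources used here, so Rb1 RNA does not check the mutation, and RNA from the locus need not encode a working protein. Nothing in the labels says that replicates came from separate cultures, so p-values measure the spread between these libraries, which may be technical. The 6 single-cell samples of the series were not analysed here.

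Pocket proteins bind E2F transcription factors and hold them in check on the promoters of genes needed for DNA replication. Cyclin-dependent kinases phosphorylate the pocket proteins as cells approach S phase, which frees the E2F factors, and most E2F factors bind DNA with a DP partner. E2F1, E2F2 and E2F3 are known as activators, E2F4 mainly acts as a repressor with p107 and p130 (the products of Rbl1 and Rbl2), and E2F7 and E2F8 are atypical repressors that bind DNA without DP. SCLC is a tumour type in which loss of RB function is close to universal. That leaves p107, p130, E2F4 and the atypical factors among the remaining repressors of the family.

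Many family genes are themselves E2F targets, so the promoters of 4 members are shown for reading beside their RNA values. RefSeq (GRCm38.p6) supplied windows of 300 bases, from 250 before to 50 after a start site, for 8 of the 10 members. Rb1 and E2f4 had none. The E2f1 window (chr2:154569377-154569676, minus strand) lies inside the gene. It is downstream of the starts of the annotated transcripts E2f1-202 (154569892) and E2f1-201 (154569720), so the region before those starts was not searched. The windows shown belong to the 3 members with a window that passed the adjusted test as lower after irradiation, E2f7 (chr10:110745189-110745488, plus strand), E2f8 (chr7:48881547-48881846, minus strand) and Rbl1 (chr2:157204485-157204784, minus strand), and to Tfdp1 (chr8:13338501-13338800, plus strand), which did not pass the test. Capitals mark an E2F site (TTTCCCGC, TTTGGCGC, TTTCGCGC or TTTGCCGC) or, in E2f8, a CHR element (TTTGAA or TTCGAA), a motif of cell cycle promoters bound by DREAM and MuvB complexes, on either strand.
E2f7: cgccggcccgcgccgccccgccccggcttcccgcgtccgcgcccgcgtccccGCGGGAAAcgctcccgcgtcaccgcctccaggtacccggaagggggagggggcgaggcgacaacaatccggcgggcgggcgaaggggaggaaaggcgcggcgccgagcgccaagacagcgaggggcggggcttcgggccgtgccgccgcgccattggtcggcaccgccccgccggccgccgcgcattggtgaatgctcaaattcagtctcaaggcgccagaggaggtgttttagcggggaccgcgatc
E2f8: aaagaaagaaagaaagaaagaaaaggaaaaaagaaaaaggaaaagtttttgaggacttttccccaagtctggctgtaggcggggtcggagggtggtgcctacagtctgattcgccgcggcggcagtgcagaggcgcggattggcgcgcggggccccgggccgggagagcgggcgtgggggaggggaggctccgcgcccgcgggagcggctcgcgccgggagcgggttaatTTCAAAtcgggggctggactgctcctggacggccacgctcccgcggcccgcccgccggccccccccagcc
Rbl1: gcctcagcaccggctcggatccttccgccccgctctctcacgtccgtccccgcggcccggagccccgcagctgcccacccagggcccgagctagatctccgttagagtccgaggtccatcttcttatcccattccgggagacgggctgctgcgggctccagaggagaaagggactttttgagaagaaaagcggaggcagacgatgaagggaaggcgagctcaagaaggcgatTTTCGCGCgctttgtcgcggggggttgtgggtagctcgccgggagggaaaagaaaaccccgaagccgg
Tfdp1: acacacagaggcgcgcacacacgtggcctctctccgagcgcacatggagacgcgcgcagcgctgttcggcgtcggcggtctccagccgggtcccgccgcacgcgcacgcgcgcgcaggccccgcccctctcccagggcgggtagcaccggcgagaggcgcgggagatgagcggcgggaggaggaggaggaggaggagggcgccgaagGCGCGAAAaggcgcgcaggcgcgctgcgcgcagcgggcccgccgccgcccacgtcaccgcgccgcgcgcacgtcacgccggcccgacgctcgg
The E2F site began at position −18 from the start site in Rbl1, at −43 in Tfdp1 and at −198 in E2f7, and the CHR element of E2f8 began at −20. Such an E2F site was present in 5 of the 8 members with a window (E2f2, E2f3, E2f7, Rbl1 and Tfdp1) and in 2.61% of all 27025 genes with a window. Counted by window, it was in 6 of the 11 windows of the members, of which the pair of Tfdp1 windows overlap, and in 2.26% of all 32851 windows. A CHR element was present in 4 of the 8 members (E2f2, E2f3, E2f8 and Rbl2) and 21.7% of genes, or in 4 of the 11 windows and 19.2% of all windows, and the motifs did not overlap each other in any of these windows. These matches describe the letters alone. Of the members with an E2F site, E2f7 and Rbl1 passed the adjusted test as lower, and E2f2, E2f3 and Tfdp1 did not. Any relation between the sites and the RNA values was not tested.

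The libraries held between 21185956 and 31036317 estimated reads. They differed in the length of the transcripts that took up the reads: averaged over reads, transcripts were 5463 and 4729 bases long in the controls and between 3625 and 3998 bases long in the irradiated libraries. With all tested genes in 10 bins of equal size by length, the median log2 fold change ran from 0.85 in the bin of shortest genes to −0.82 in that of the longest. The effect of transcript length and that of radiation cannot be told apart for the libraries as a whole, and each change below is therefore given with and without a length offset, a fit that removes any trend with length from each library, whether technical or biological. Of 14106 genes tested with edgeR, 1827 (13.0%) were lower and 1786 (12.7%) higher after irradiation at an adjusted p under 0.05, whereas limma on log2(TPM + 1) called 2678 lower and 693 higher. The labelled cell type was matched by its markers, with the 9 neuroendocrine genes summing to 2187 to 2264 TPM in controls and 1806 to 2011 TPM in irradiated cells. Leukocyte markers summed to at most 6.89 TPM (4 of 5 under 1 TPM in each group) and endothelial markers to at most 1.55 TPM. Most of the leukocyte sum came from Cd68, at 4.05 and 6.62 TPM in controls and 1.60, 0.992 and 1.35 TPM after irradiation. The macrophage markers Adgre1 and Csf1r were at or near 0. Fibroblast markers summed to 56.9 to 67.4 TPM in controls and 36.8 to 51.9 TPM in irradiated cells, most of it from Pdgfra. Col1a1 was at 13.5 TPM in control replicate 2 and at most 0.104 TPM in the other libraries, while Col3a1 had no read in any library.

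The atypical repressors E2f7 and E2f8 showed the strongest falls of the family, and 2 of the 3 pocket protein genes, Rb1 and Rbl1, also had fewer reads after irradiation. In all, 4 of 10 members were lower and 0 were higher (edgeR, adjusted p under 0.05), against 13.0% lower and 12.7% higher among all genes tested. DESeq2 likewise called 4 lower and 0 higher after adjustment, beside 2143 lower and 2364 higher of 20526 genes. At an unadjusted p under 0.05 the counts were 6 lower and 0 higher in both edgeR and DESeq2. The share of all genes at an unadjusted p was not counted, so unadjusted counts of genes are not read as results about the members. With the length offset 1 member, E2f7, was lower and 0 were higher, against 1.81% and 2.41% of all genes, with 2 lower and 1 higher at an unadjusted p. None of the members passed a log2 fold change of 1.5 in addition to the adjusted p, a pair of limits that 1.90% of genes passed downward and 1.63% upward. In 6 members every irradiated library lay below both controls, a pattern seen in 29.3% of all genes, and 0 members had every irradiated library above both, a pattern seen in 30.1%.

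**Figure D1:**
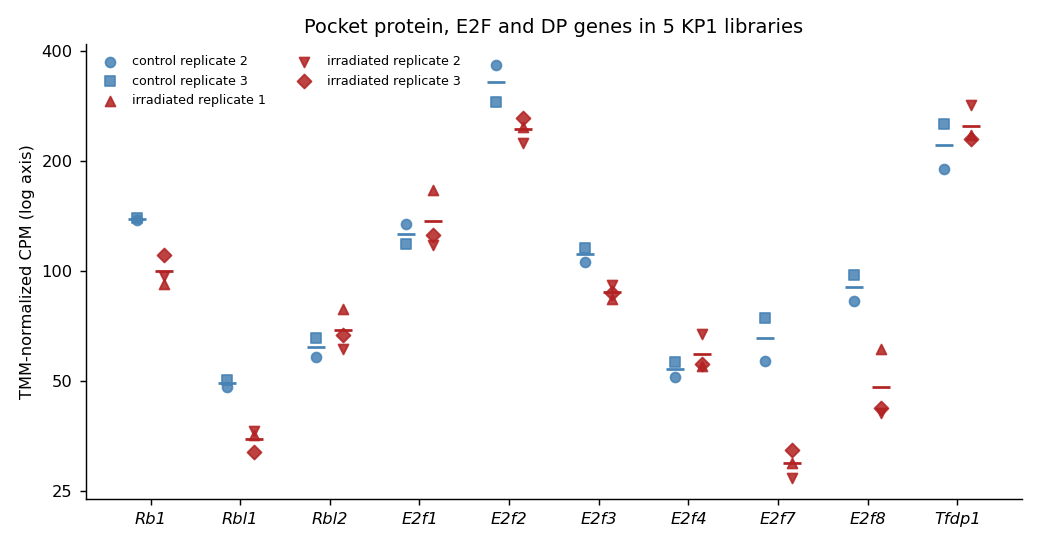
TMM-normalized CPM (log axis) of the 10 family genes in each of the 5 libraries, with horizontal bars at the group means (blue, 2 control libraries; red, 3 irradiated libraries). The irradiated libraries of Rb1, Rbl1, E2f2, E2f3, E2f7 and E2f8 all lie below both controls, and the groups of the other 4 genes overlap.

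E2f7 (chromosome 10, 110745439 to 110787384 plus strand, GRCm38 as for all genes below) encodes an atypical E2F that represses E2F target genes, E2f1 among them. Its level was 56.8 and 74.5 CPM in the controls and 29.9, 27.2 and 32.5 CPM in the irradiated libraries (CPM are reads per gene scaled to the TMM-normalized library size, comparable between libraries for a given gene). All 3 irradiated libraries lay close together and below the lower control, while the controls differed from each other by more than the irradiated libraries did. The fall was 2.20-fold (log2 fold change −1.14, SE 0.17, 95% confidence interval −1.53 to −0.74, edgeR adjusted p = 0.00919), and with the length offset it was 1.73-fold (log2 fold change −0.79, interval −1.16 to −0.42, adjusted p = 0.0412). E2f7 was called lower by edgeR whichever library was left out.

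E2f8 (chromosome 7, 48866429 to 48881596, minus strand), the second atypical repressor, fell 1.88-fold. It had 83.0 and 97.7 CPM in the controls and 61.1, 40.9 and 42.4 CPM in the irradiated libraries, of which replicate 1 lay closest to the controls. Its log2 fold change was −0.91 (SE 0.20, interval −1.37 to −0.45, edgeR adjusted p = 0.0170), and with the length offset −0.79 (interval −1.24 to −0.34, adjusted p = 0.0586). The call was lost without control replicate 2 (adjusted p = 0.0618) and without irradiated replicate 2 (adjusted p = 0.0504), with log2 fold changes of −1.0 and −0.80.

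Rb1 (chromosome 14, 73183673 to 73325822, minus strand), the founding pocket protein gene and the one mutated in this line, was well expressed in every library. It had 138 and 139 CPM in the controls and 92.3, 97.0 and 111 CPM after irradiation, so that the groups were apart with nearly equal controls. The log2 fold change was −0.47 (SE 0.15, interval −0.80 to −0.14, edgeR adjusted p = 0.0455), and with the length offset it was −0.13 (interval −0.41 to 0.14, adjusted p = 0.496). Rb1 shares 488 exon bases with Rcbtb2 on the opposite strand, and since the strandedness of the libraries is not given in the sources used here, reads of the shared stretch cannot be divided between them.

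Rbl1 (chromosome 2, 157145893 to 157204534, minus strand) encodes p107, a pocket protein made mainly in dividing cells and a classical E2F target. It had 48.2 and 50.4 CPM in the controls and 35.7, 36.5 and 32.1 CPM in irradiated cells, again with no overlap. Its log2 fold change of −0.50 (SE 0.15, interval −0.84 to −0.17, edgeR adjusted p = 0.0392) became −0.22 with the length offset (interval −0.55 to 0.11, adjusted p = 0.351). The calls for Rb1 and Rbl1 were each lost whichever library was left out, with adjusted p from 0.0553 to 0.161 for Rb1 and from 0.0766 to 0.144 for Rbl1. They were also lost with a GC offset, at −0.20 (adjusted p = 0.344) and −0.29 (adjusted p = 0.194).

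Rbl2 (chromosome 8, 91070057 to 91123844, plus strand), which encodes p130, the pocket protein typical of resting cells and of the DREAM repressor complex, did not share the falls of Rb1 and Rbl1. It had 58.2 and 65.9 CPM in the controls and 78.7, 61.1 and 66.9 CPM in irradiated cells, and the groups overlapped. The log2 fold change was 0.15 (SE 0.16, interval −0.22 to 0.52, edgeR adjusted p = 0.519). With the length offset it was 0.53 (interval 0.16 to 0.90, adjusted p = 0.0888), the one positive value of the family whose interval lay above 0. Up to 693 exon bases of Rbl2 are shared with Aktip on the opposite strand, a gene with up to 1308 reads in a library.

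The activators split in read count, with E2f1 overlapping between the groups and E2f2 and E2f3 lying below the controls without passing the adjusted test. E2f1 had 134 and 119 CPM in the controls and 167, 118 and 125 CPM after irradiation (log2 fold change 0.11, interval −0.31 to 0.53, edgeR adjusted p = 0.690). E2f2 had 367 and 289 CPM in the controls and 248, 223 and 262 CPM after irradiation (log2 fold change −0.43, interval −0.80 to −0.05, adjusted p = 0.0890). E2f3 had 106 and 116 CPM in the controls and 83.8, 91.6 and 87.0 CPM after irradiation (log2 fold change −0.35, interval −0.66 to −0.03, adjusted p = 0.0970). E2f2 was called lower in 5 of 18 refits, among them the GC offset (−0.64, adjusted p = 0.0409) and the fit without control replicate 3 (−0.57, adjusted p = 0.0474), and E2f3 in 2 of 18, both on the TPM scale. With the length offset none of the 3 intervals lay apart from 0, at 0.04 for E2f1 (interval −0.37 to 0.46), −0.07 for E2f2 (interval −0.37 to 0.24) and 0.07 for E2f3 (interval −0.25 to 0.38).

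E2f4, the main repressor E2F that partners p107 and p130, and Tfdp1, the DP1 subunit shared by the classical E2F factors, both overlapped between groups. E2f4 had 51.4 and 56.6 CPM in the controls and 55.0, 67.4 and 55.7 CPM after irradiation, with a log2 fold change of 0.14 (interval −0.22 to 0.50, edgeR adjusted p = 0.550) that was −0.17 with the length offset (interval −0.45 to 0.12). Tfdp1 had 190 and 253 CPM in the controls and 235, 285 and 229 CPM after irradiation, with a log2 fold change of 0.17 (interval −0.25 to 0.59, adjusted p = 0.511) that was 0.00 with the length offset (interval −0.33 to 0.33). The 2 controls of Tfdp1 differed from each other by more than the group means did. A near copy of Tfdp1, the pseudogene Gm7390 (97.6% identity over 1230 bases), took at most 1 read in a library.

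**Figure D2:**
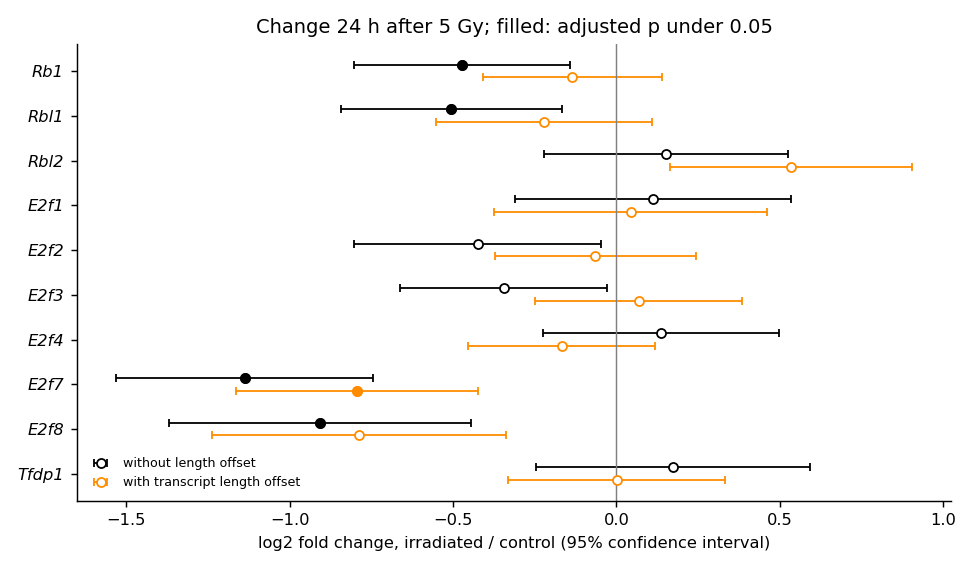
Log2 fold change (irradiated over control) of the 10 family genes with 95% confidence intervals from edgeR, without (black) and with (orange) the transcript length offset; filled points have an adjusted p under 0.05. Without the offset Rb1, Rbl1, E2f7 and E2f8 are filled, and with it E2f7 alone, at −0.79.

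The length values bear on these changes directly. Rb1, Rbl1 and E2f7 belonged to bin 8 of the 10 bins of transcript length, whose median log2 fold change was −0.25, and E2f2, E2f3 and Rbl2 to bin 9, with a median of −0.43. E2f8 lay in bin 7, at −0.12, and E2f1, Tfdp1 and E2f4 in bins 5, 4 and 3, with medians of 0.13, 0.24 and 0.40. Against these medians Rb1, Rbl1, E2f1, E2f2, E2f3, E2f4 and Tfdp1 lay within the interquartile range of their bin, E2f7 and E2f8 lay below it, and Rbl2 lay above it. The median over the 10 members was −0.39 without and −0.10 with the offset, beside 0.02 and 0.04 for all genes tested. The share of the change of each gene that comes from length was not tested.

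**Figure D3:**
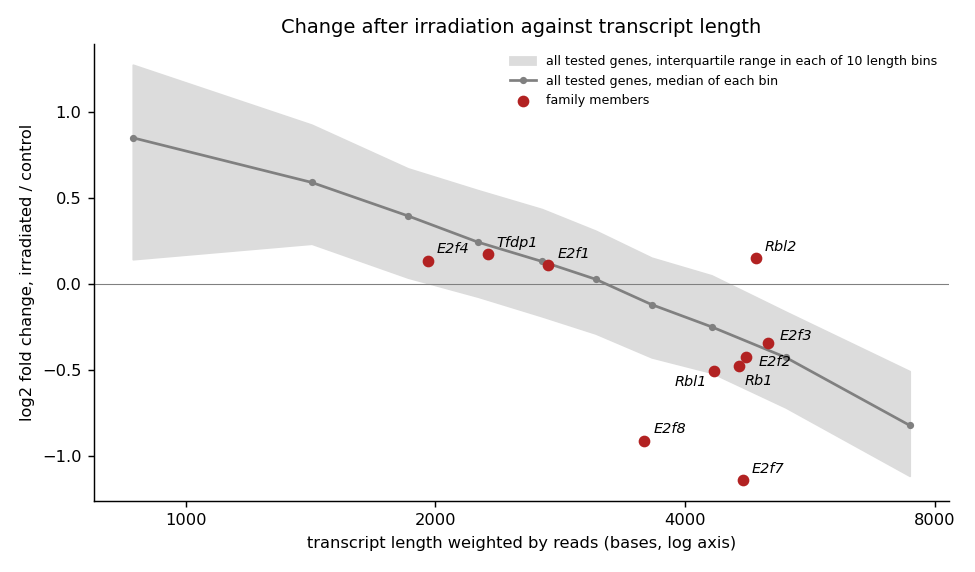
Log2 fold change (irradiated over control) against transcript length weighted by reads (bases, log axis), with the 10 family genes in red over the median (grey line) and interquartile range (grey band) of all tested genes in 10 bins of length. The all-gene median falls from 0.85 to −0.82, with E2f7 and E2f8 below the band and Rbl2 above it.

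Ratios of reads between members within a library do not depend on depth or on the scaling between libraries. Between genes of unlike length they still carry the trend with transcript length. For 6 pairs, chosen after the values were seen, the ratio was lower in every irradiated library than in both controls. Reads of E2f7 per read of Rbl2, whose transcripts are of nearly the same length (4693 and 4868 bases), were 0.976 and 1.13 in the controls and 0.380, 0.445 and 0.485 after irradiation. E2f7 and Rbl2 thus gave about equal reads in control cells, and the mean log2 ratio differed by −1.27 (irradiated minus control). Rb1 per Rbl2 was 2.37 and 2.11 in the controls and 1.17, 1.59 and 1.65 after irradiation, and Rbl1 per Rbl2 was 0.828 and 0.766 against 0.454, 0.597 and 0.480. Reads of E2f7 per read of E2f2, again of like length (4730 bases), were 0.155 and 0.258 in the controls and 0.121, 0.122 and 0.124 after irradiation. Between the atypical repressor E2f8 and the activator E2f1, whose transcripts are shorter (3570 and 2735 bases), the ratio was 0.618 and 0.821 against 0.366, 0.347 and 0.339. For E2f2 per E2f1, of unlike length (4730 and 2735 bases), the ratio was 2.73 and 2.43 against 1.48, 1.90 and 2.09. Its mean log2 ratio differed by −0.51, while the all-gene medians of their length bins were −0.43 and 0.13. For E2f8 per E2f1 the difference was −1.02, beside bin medians of −0.12 and 0.13. The part of length in these ratios was not tested. Because the pairs were chosen for these values, the ratios are a description and carry no test.

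Levels were compared between genes on the TPM scale, which is per length. In control cells Tfdp1 led with a mean of 240 TPM, followed by E2f2 (151), E2f1 (95.3), E2f4 (72.8), Rb1 (62.0), E2f8 (51.7), E2f3 (43.2), E2f7 (34.1), Rbl2 (29.9) and Rbl1 (26.5). Each neighbour in this order was separate over the 2 controls except E2f7 from Rbl2 and Rbl2 from Rbl1. In irradiated cells Tfdp1 again led (217 TPM), ahead of E2f2 (84.7) and E2f1 (84.5), which overlapped, then E2f4 (60.0) and Rb1 (36.2). E2f3 (28.0), Rbl2 (24.3) and E2f8 (22.2) overlapped as neighbours, as did Rbl1 (15.2) and E2f7 (14.6) at the foot of the order. By its mean E2f7 thus ranked above both Rbl2 and Rbl1 in control cells and below every other member after irradiation. The control rank rests on control replicate 3, with 40.5 TPM for E2f7, 31.8 for Rbl2 and 24.7 for Rbl1. In control replicate 2 E2f7 (27.7 TPM) already lay below Rbl2 (28.0) and Rbl1 (28.3).

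The TPM values share a fixed total in each library, and on that scale the median of all genes itself shifted by −0.24 (limma on log2(TPM + 1)). All 10 members had a negative log2 fold change there, the signs of Rbl2, E2f1, E2f4 and Tfdp1 being turned against the counts. On that scale 6 members were called lower and 0 higher, beside 2678 lower and 693 higher of 14106 genes. Relative to the shifted median, E2f7 stood at −0.93, E2f8 at −0.96, Rb1 and Rbl1 at −0.52, E2f2 at −0.59 and E2f3 at −0.36, whereas Rbl2 (−0.06), E2f1 (0.05), E2f4 (−0.03) and Tfdp1 (0.12) stayed near 0.

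The makeup of the E2F messages is given by shares, which need no scaling between libraries and carry no test here. E2f7 and E2f8 together held 16.8% and 21.4% of the summed TPM of the 6 E2F genes in the controls and 13.3%, 11.3% and 12.8% in irradiated cells. The 3 activators together held nearly the same part, 67.7% and 61.7% in the controls and 69.3%, 64.0% and 67.5% after irradiation, with overlapping groups. Within them E2f1 went from 21.3% ± 1.96 (SD, n = 2) to 28.6% ± 3.97 (n = 3), above both controls in every irradiated library, and E2f2 from 33.8% ± 2.85 to 28.7% ± 2.20, below both. E2f4 went from 16.2% ± 0.973 to 20.6% ± 3.72, also without overlap, and E2f3 held 9.63% ± 0.561 and 9.58% ± 0.953 with overlap. Among the pocket protein messages Rbl2 held 24.4% and 26.0% in the controls and 35.1%, 30.6% and 30.2% after irradiation, while the shares of Rb1 (52.3% ± 2.11 and 47.9% ± 4.49) and Rbl1 (22.5% ± 3.23 and 20.2% ± 2.15) overlapped. E2f1 and E2f4, with larger shares after irradiation, have shorter transcripts than E2f2, E2f7 and E2f8, with smaller ones. Rbl2, with a larger share, has the longest transcript of the 3 pocket protein genes. The part of length in these shares was not tested.

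**Figure D4:**
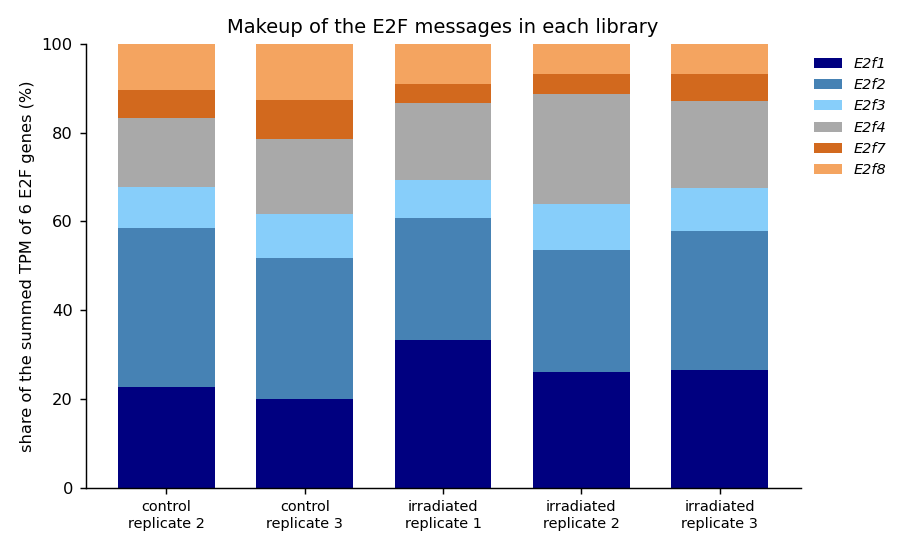
Share (%) of the summed TPM of 6 E2F genes held by each gene, 1 stacked bar for each of the 5 libraries. The E2f7 and E2f8 segments together make up 16.8% and 21.4% in the controls and 11.3% to 13.3% in the irradiated libraries.

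At transcript level the members had 53 annotated transcripts, of which 42 had at least 3 reads in some library and 31 were tested. In edgeR 0 member transcripts were called lower and 0 higher after adjustment over 40440 transcripts, of which 0% were lower and 0% higher, and the smallest adjusted p of a member transcript was 0.133. At an unadjusted p under 0.05 there were 4 lower and 5 higher, against 8.31% and 12.5% of all transcripts. DESeq2 called 2 lower and 4 higher, against 5.24% and 10.0% of all transcripts with an adjusted p. Salmon divides reads between overlapping transcripts by a model, and no estimate of the error of that division was used here.

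E2f7 spread its messages over 4 annotated transcripts that each held at least 10% of the TPM of the gene on average. E2f7-201 (5473 bases, 13 exons, protein coding) had 12.0 and 19.1 TPM in the controls and 5.67, 6.00 and 7.17 TPM after irradiation, and its share of the gene was 45.2% ± 2.70 in controls and 43.9% ± 5.60 after irradiation (DESeq2 log2 fold change −0.81, adjusted p = 0.0401; edgeR adjusted p = 0.159). E2f7-204 (3567 bases, 13 exons, protein coding) had 7.44 and 5.98 TPM in the controls and 2.41, 0.463 and 1.16 TPM after irradiation. E2f7-209 (2865 bases, 3 exons) had 4.26 and 4.95 TPM against 2.36, 1.96 and 3.26 TPM. Neither passed the adjusted test, with DESeq2 adjusted p = 0.0964 and edgeR adjusted p = 0.238 for E2f7-204. For E2f7-209 these were 0.603 and 0.667. The short E2f7-203 (438 bases) was listed at 0 in 1 control and 1 irradiated library and reached 5.99 TPM in another, so its share varied from 0% to 32.1%. A retained intron transcript below the 10% limit, E2f7-208, is named because of its values: it held 9.15% and 8.27% of the gene in the controls and 2.51%, 1.11% and 2.48% after irradiation (DESeq2 log2 fold change −2.81, adjusted p = 0.00695; edgeR adjusted p = 0.133). It had 77.3 and 92.4 reads in the controls and 10.5, 3.95 and 15.5 reads after irradiation.

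E2f8 was carried by E2f8-201 (3691 bases) and E2f8-202 (3499 bases), both protein coding with 13 exons, and their shares did not separate the groups. E2f8-201 had 16.2 and 22.1 TPM in the controls and 9.43, 8.54 and 8.30 TPM after irradiation, and E2f8-202 had 29.8 and 33.2 TPM against 18.8, 9.20 and 12.1 TPM. Both transcripts were below the controls in every irradiated library, and how many of all transcripts show this was not counted. Neither passed the adjusted test, with DESeq2 adjusted p = 0.0984 and edgeR adjusted p = 0.206 for E2f8-201. For E2f8-202 these were 0.199 and 0.274. The distance of irradiated replicate 1 from the other irradiated libraries was larger in E2f8-202 than in E2f8-201.

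**Figure D5:**
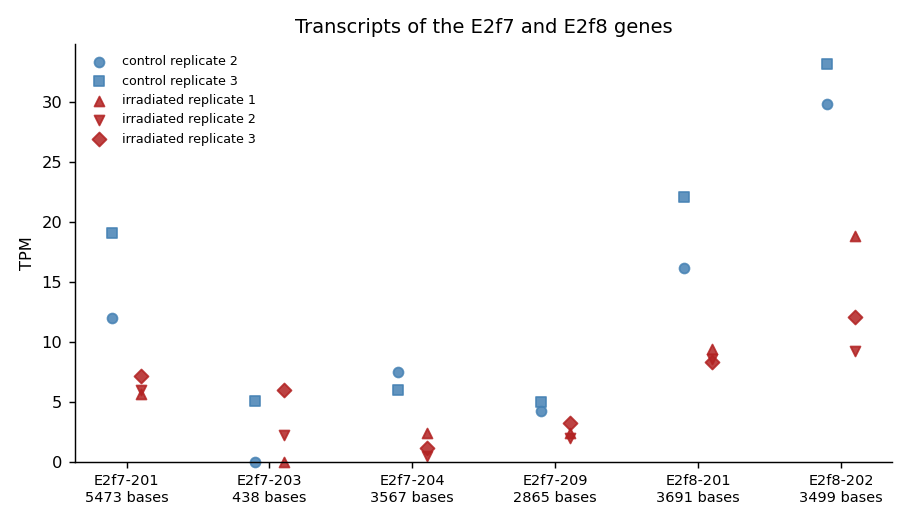
TPM of the transcripts of E2f7 and E2f8 that held at least 10% of the TPM of their gene on average, in each library (blue, control; red, irradiated), with transcript lengths below the names. In E2f7-201, E2f7-204, E2f7-209, E2f8-201 and E2f8-202 all irradiated libraries lie below both controls, and E2f7-203 overlaps. How many of all transcripts show this pattern was not counted, so it is not read as a result about these transcripts. On log2(TPM + 1) the median of all genes shifted by −0.24.

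Several members were close to a single message. Rb1-201, with 27 exons and 4656 bases, held 94.3% ± 6.25 of the Rb1 TPM in controls and 95.4% ± 3.02 after irradiation, so that nearly all reads of the mutated gene were assigned to the full annotated form. E2f3-201 held 88.5% ± 2.34 and 85.9% ± 2.71, and E2f1-202 held 90.9% ± 2.56 and 86.9% ± 3.33, the rest being E2f1-201, which DESeq2 called higher (log2 fold change 0.82, adjusted p = 0.0395; edgeR adjusted p = 0.178). The main protein-coding transcript held a larger share in every irradiated library than in both controls for 3 genes. How many of all genes show this pattern was not counted, so the count is not read as a result about the members. Its share went from 81.0% ± 1.80 to 91.8% ± 1.27 in Rbl2 (Rbl2-201), from 75.8% ± 2.40 to 86.1% ± 2.56 in E2f4 (E2f4-201) and from 89.2% ± 8.30 to 98.1% ± 1.01 in E2f2 (E2f2-201). E2f4-202, a processed transcript of 358 bases, went in share from 17.1% ± 3.18 to 12.2% ± 2.43. TPM shares weigh reads by length, so few reads of short transcripts move them. E2f4-202 had 7.00 to 18.0 reads in a library beside 1364 to 1505 of E2f4-201, and in E2f2 the other transcript had 1.20 to 49.7 reads beside 4892 to 10452 of E2f2-201. Rbl2-201 had 1327 to 1951 reads, and no other Rbl2 transcript had more than 19.7. These shares were not tested.

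Rbl1 and Tfdp1 were divided more widely. Rbl1-201 (22 exons) held 56.8% ± 17.6 of the Rbl1 TPM in controls and 62.5% ± 8.52 after irradiation, and the retained intron form Rbl1-202 held 22.5% ± 12.2 and 21.3% ± 1.42, with the controls far apart in both. Tfdp1 had 5 transcripts at or above 10%, led by Tfdp1-201 (34.2% ± 9.27 and 28.4% ± 3.33) and Tfdp1-204 (20.3% ± 10.8 and 22.5% ± 5.04). Tfdp1-203 was the one of them whose share lay above both controls in all irradiated libraries, at 13.7% and 13.0% against 17.2%, 18.7% and 16.2% (DESeq2 log2 fold change 0.76, adjusted p = 0.0498; edgeR adjusted p = 0.171). DESeq2 also called Tfdp1-209, a retained intron form (log2 fold change 0.45, adjusted p = 0.0269), while its share overlapped (10.7% to 16.7% in controls and 13.0% to 15.4% after irradiation), as did that of Tfdp1-202 (13.3% ± 4.89 and 11.1% ± 3.84). Below the 10% limit and likewise named for their values, Tfdp1-206 (452 bases) had 0 reads in both controls and 23.8, 3.92 and 28.3 reads after irradiation (DESeq2 adjusted p = 0.0157; edgeR adjusted p = 0.137), and Rbl1-204 held 16.1% and 14.7% of Rbl1 in the controls and 8.88%, 4.76% and 2.45% after irradiation (DESeq2 adjusted p = 0.157).

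The partners of the family were called in both directions. Of 72 genes in 7 lists of the pathway, 71 were tested, and edgeR called 13 lower and 10 higher without the length offset, beside 13.0% and 12.7% of all genes, and 0 lower and 2 higher with it (9 and 11 at an unadjusted p under 0.05). DESeq2 called 16 lower and 13 higher. With few genes in each list, counts of 1 or 2 lie close to what those all-gene shares give, and they are not read as results about a list. Among the remaining E2F and DP genes (E2f5, E2f6 and Tfdp2) 0 of 3 changed in either direction in edgeR or DESeq2, and 0 had an unadjusted p under 0.05 in edgeR.

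Of the kinases and cyclins that act on pocket proteins, 1 of 7 was lower and 1 higher (median log2 fold change 0.14, all genes 0.02), beside 13.0% and 12.7% of all genes. The G1 kinase gene Cdk6, whose annotated transcript is very long (11088 bases), fell from 76.6 and 44.1 CPM to 7.69, 18.3 and 24.6 CPM (log2 fold change −1.84, edgeR adjusted p = 0.0189; −0.78 and 0.217 with the length offset). The related kinase gene Cdk4 rose from 266 and 325 CPM to 400, 564 and 419 CPM (log2 fold change 0.64, adjusted p = 0.0484; 0.24 and 0.318 with the offset). The other genes tested did not pass the test.

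The CDK inhibitors, which keep pocket proteins in the E2F-binding state, had 1 of 7 lower and 2 higher, beside 13.0% and 12.7% of all genes (median 0.35). Cdkn2a, the locus of p16 and p19, rose from 34.5 and 36.3 CPM to 121, 94.6 and 62.1 CPM (log2 fold change 1.39, edgeR adjusted p = 0.0116; 0.72 and 0.104 with the length offset). Cdkn1a, which encodes p21, rose from 18.3 and 32.4 CPM to 64.1, 54.8 and 46.8 CPM (log2 fold change 1.12, adjusted p = 0.0192; 0.82 and 0.0671 with the offset). Cdkn2b, which encodes p15, fell from low levels of 3.57 and 1.39 CPM to 0.717, 0.457 and 0.146 CPM (log2 fold change −2.49, adjusted p = 0.0414; −3.09 and 0.0578 with the offset).

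The DREAM and MuvB genes, whose products pair with p107, p130 and E2F4 in repression and with B-MYB and FOXM1 in activation, had 1 of 7 lower and 1 higher, beside the same shares of all genes (median 0.01). Foxm1, which drives genes of G2 and mitosis, fell from 328 and 253 CPM to 186, 110 and 129 CPM (log2 fold change −1.03, edgeR adjusted p = 0.0177; −0.74 and 0.0911 with the length offset). Rbbp4, a histone-binding subunit shared by MuvB and HDAC complexes, rose from 412 and 549 CPM to 759, 825 and 729 CPM and kept its call with the offset (log2 fold change 0.68, adjusted p = 0.0289; 0.98 and 0.0370).

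Of the 13 genes for corepressors recruited by pocket proteins, 5 were lower and 1 higher, beside 13.0% and 12.7% of all genes (median −0.37, median transcript length 4804 bases). With the length offset 0 were called in either direction, beside 1.81% lower and 2.41% higher of all genes. With the replicate block 0 were called as well, beside 494 lower and 602 higher of 14106 genes. The maintenance methyltransferase gene Dnmt1 had the smallest p, with a log2 fold change of −0.85 (edgeR adjusted p = 0.0104; −0.39 and 0.0949 with the length offset), ahead of the remodeller gene Smarca4 at −1.21 (adjusted p = 0.0139; −0.70 and 0.0812). The histone deacetylase gene Hdac1 was the 1 that rose, at 0.60 (adjusted p = 0.0328; 0.32 and 0.142).

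The E2F target genes of the G1/S transition had 4 of 30 lower and 4 higher, close to the 13.0% and 12.7% of all genes, with a median of −0.06. Gins2, a subunit of the replicative helicase, rose from 35.9 and 61.9 CPM to 109, 109 and 88.6 CPM (log2 fold change 1.06, edgeR adjusted p = 0.0180; 1.23 and 0.0370 with the length offset). Pcna, the replication clamp, rose from 183 and 232 CPM to 429, 421 and 283 CPM (log2 fold change 0.86, adjusted p = 0.0272; 0.38 and 0.183 with the offset). The genes with the smallest p among those that fell were Mcm10, a replication initiation factor, at −0.71 (adjusted p = 0.0224; −0.59 and 0.0740) and Pola1, the catalytic subunit of the primase polymerase, at −0.74 (adjusted p = 0.0235; −0.27 and 0.276). The split depended on the setting. It was 6 lower and 5 higher in DESeq2, 8 and 1 on log2(TPM + 1), and 0 and 1 with the length offset. Counts over all genes moved too, with 2143 lower and 2364 higher of 20526 in DESeq2. They were 2678 and 693 of 14106 on log2(TPM + 1), and 256 and 340 of 14106 with the length offset. The shifts between settings are therefore not read as a result about this list.

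In the list of ubiquitin ligase subunits of E2F and CDK inhibitor turnover, 1 of 4 was lower and 1 higher, beside 13.0% and 12.7% of all genes (median −0.03). Ccnf, which encodes cyclin F, the substrate receptor that targets E2F1, E2F2, E2F3, E2F7 and E2F8 proteins for degradation, fell from 106 and 104 CPM to 77.5, 73.5 and 75.7 CPM (log2 fold change −0.48, edgeR adjusted p = 0.0341; −0.47 and 0.0607 with the length offset). Cks1b, a cofactor of the SKP2 ligase, rose from 17.3 and 38.4 CPM to 69.5, 83.7 and 51.4 CPM (log2 fold change 1.29, adjusted p = 0.0284; 0.67 and 0.127 with the offset). RNA values do not measure the proteins, whose activity in this family is set largely by phosphorylation and degradation.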

How the data were processed

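KP1 cells were sequenced in bulk, with 2 control and 3 irradiated libraries grouped and numbered by the labels. The authors quantified reads with Salmon (0.8.2 in the submitters' processing notes) against mm10 and deposited, per transcript, estimated counts (expected counts, not scaled), TPM, length and effective length. Their differential test was DESeq2 (1.22.2 in those notes). Of 113116 transcripts 112762 matched GENCODE M21 (GRCm38), and estimated counts and TPM were summed to 35056 genes, with counts rounded. edgeR 4.0.16 (R 4.3.3) with filterByExpr, TMM, its quasi-likelihood F test and p adjusted by Benjamini-Hochberg over all 14106 genes was the test, and 40440 transcripts were tested likewise. The length offset was a spline of 5 degrees of freedom on transcript length per library.

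The members and lists were chosen with earlier results of these data known. All members were named, with up to 2 risen and 2 fallen genes per list by smallest p, and transcripts with a mean share of at least 10%. Depth was 21185956 to 31036317 reads, and the floor of 3 reads covers counting error only. Alternatives were DESeq2 1.42.0, limma 3.58.1 on log2(TPM + 1) and log2(TPM + 0.1), RLE, other filters, length and GC offsets, a replicate block and leaving out each library. On simulated counts for 13823 genes with 200 given a simulated log2 fold change of 2, edgeR made 196 calls, 8 of them false. With a simulated length trend (13844 genes) it gave 753 false among 940 calls, and 4 among 192 with the length offset. That trend was of the form the offset removes, and it was false by construction. These counts thus check the code and do not say how many calls on the real libraries are false. Near copies were sought with blastn 2.17.0.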

Additional observations from a re-analysis of the deposited data

How the results depend on the processing

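E2f7 was lower in all 18 refits (log2 fold change −1.30 to −0.79) and called in 17, and E2f8 was lower in all 18 (−1.24 to −0.77) and called in 15. Rb1 and Rbl1 were each lower in all 18 and called in 7. The count of members called lower was 4, and 0 were higher in any alternative. It was 2 with no filter on low counts, 2 with the effective length offset, 1 with the transcript length offset and 0 with the added limit of a log2 fold change of 1.5, which is stricter by construction. Over all genes, 1979 of 20526 were lower with no filter and 1391 of 14106 with the effective length offset. Leaving out irradiated replicate 1, 2 or 3 gave 2, 1 and 2 members lower, with fewer samples tested. Over all genes, 909 of 13981, 834 of 13943 and 1460 of 13864 were lower in these fits. Where 1 control was left, it was assumed to vary like the other libraries, and those counts of members are left out here. Same-numbered libraries did not deviate together (r = −0.20 across 14106 genes). This value cannot decide whether they were paired, since length differed between replicates 2 and 3 in opposite directions. Averaged over reads, it was 5463 and 4729 bases in the controls and 3625 and 3998 bases in the irradiated libraries. With the replicate block 2 members were lower (E2f7 and E2f8), beside 494 of 14106 genes. When the length offset joined the block 1 (E2f8) was lower, beside 117 of 14106 genes. With the numbers exchanged, an alternative chosen after seeing the data, 5 members were lower, beside 2670 of all 14106 genes. DESeq2 called 6 member transcripts where edgeR called 0.

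Signs of uncalled members turned under several alternatives, and none of these values was called. On log2(TPM + 1) and log2(TPM + 0.1), Rbl2 was at −0.30 and −0.31, E2f1 at −0.19 and −0.19, E2f4 at −0.27 and −0.28, and Tfdp1 at −0.13 and −0.13. With the GC offset E2f1 was at −0.15 and E2f4 at −0.065. With the transcript length offset E2f3 was at 0.068 and E2f4 at −0.17, and with the replicate block added to it E2f1 was at −0.13, E2f3 at 0.084 and E2f4 at −0.13. E2f1 was at −0.056 with the replicate block, at −0.057 with exchanged numbers, and from −0.058 (without irradiated replicate 1) to 0.22 with 1 library left out.

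Of the pathway genes, 13 were lower and 10 higher. These counts were 20 and 2 on log2(TPM + 1), 2 higher on log2(TPM + 0.1), 0 and 2 with the length offset, 3 and 4 with the replicate block, 2 and 1 when the length offset joined the block, and 21 and 17 with exchanged numbers. Leaving out 1 library gave 0 to 9 lower and 0 to 15 higher, the zeros without control replicate 2. The cause of these shifts was not tested. Counts over all genes also moved, from 1827 lower and 1786 higher to 256 and 340 with the length offset, 494 and 602 with the replicate block, and 175 and 95 without control replicate 2.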
